A study of Mus musculus with 4 samples.

Results

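The genes described here are 10 genes of leukocyte adhesion, 8 integrin chains and a pair of cytoplasmic integrin activators, measured by RNA-seq in mouse peritoneal macrophages. They were chosen by symbol (Itgam, Itgal, Itgb2, Itga4, Itga5, Itga6, Itgb1, Itgb7, Tln1 and Fermt3), and all 10 were found among the 13834 rows of the gene table. The study compared 2 samples of Dnmt1fl/fl macrophages, which carry floxed Dnmt1 alleles, with 2 samples of Dnmt1KO macrophages, in which Cre expressed from the LysM locus deletes Dnmt1 in myeloid cells. The mice were 10 weeks old, and the cells of both genotypes were washed from the peritoneum 3 days after 2 ml of 4% thioglycolate broth, an irritant that draws leukocytes into the cavity, and were then placed in culture. The submitters' genotype label for the Dnmt1fl/fl samples reads wt, and nothing in the labels says whether a sample came from a single mouse. P-values therefore measure only the spread between these samples, which may be technical.

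Integrins are heterodimers of an alpha and a beta chain that bind matrix proteins and counter-receptors on other cells. The beta2 chain pairs with alphaM or alphaL to form Mac-1 and LFA-1 on leukocytes, whereas beta1 and beta7 pair with alpha4 and beta1 also pairs with alpha5 and alpha6. Talin and kindlin bind the cytoplasmic tails of beta chains and switch integrins to the state that holds ligand, and macrophages use these receptors to adhere, to leave the circulation and to take up complement-coated particles.

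Total counts were 20228071 and 24198943 in Dnmt1fl/fl replicates 1 and 2, and 21767795 and 22611219 in Dnmt1KO replicates 1 and 2. Values below are CPM, counts scaled to a common library total with TMM factors, in that order of samples unless stated. The targeted gene, Dnmt1, which copies DNA methylation after replication, was at 86.6, 67.0, 37.0 and 42.7 CPM. Both Dnmt1KO samples were below both Dnmt1fl/fl samples. The log2 fold change of Dnmt1 was -0.95 (SE 0.24), with an adjusted p of 1.00 from edgeR and an unadjusted edgeR p of 0.00839. It was -0.85 without Dnmt1KO replicate 1.

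Dnmt1KO replicate 1 stood apart from the other samples. Its root mean square log2 difference over all genes tested was 0.81 and 0.67 to the Dnmt1fl/fl samples and 0.89 to the other Dnmt1KO sample, against 0.37 to 0.49 among the remaining 3 samples. Of the genes tested, 78.4% had either their highest or their lowest level in this sample. For the 10 genes and the lists of integrin-related genes, log2 fold changes are therefore given with and without it. So are counts of genes past a log2 fold change of 0.2. Counts by unadjusted p are given only with all samples.

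Markers of other cells differed in the same sample. The 7 neutrophil genes that passed the filter on low counts, of 12 in the list, summed to 195, 262, 759 and 194 CPM, and 6 of the 7 were higher in Dnmt1KO by 0.2 on the log2 scale, against 21.8% of all genes tested. All 6 had a negative log2 fold change without Dnmt1KO replicate 1. Csf3r had the highest mean over the 4 samples, at 158, 137, 169 and 159 CPM. In Dnmt1KO replicate 1 it was exceeded by S100a9, named here after its values were seen, at 5.55, 60.5, 320 and 8.35 CPM. The defining marker Cxcr2 was at 2.63, 12.6, 35.8 and 3.05 CPM, and Ly6g, too low to test, had 1, 8, 79 and 1 counts. The summed level was highest in Dnmt1KO replicate 1 and next highest in Dnmt1fl/fl replicate 2.

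The 8 B cell genes summed to 216, 269, 97.6 and 321 CPM. Cd22, with the highest mean over samples, did not follow the sum, at 81.0, 53.7, 54.0 and 82.5 CPM. It was lowest in Dnmt1fl/fl replicate 2 and nearly as low in Dnmt1KO replicate 1, with a log2 fold change of 0.019. Without Dnmt1KO replicate 1 the median log2 fold change of the list went from -0.28 to 0.41. The defining marker Cd79a, a chain of the B cell receptor, was at 30.8, 54.0, 13.7 and 54.7 CPM. The 6 genes of resident large peritoneal macrophages, of which Prg4 had the highest mean over samples, summed to 392, 272, 112 and 351 CPM. Their median log2 fold change was -0.43, and 0.063 without Dnmt1KO replicate 1. Both sums were lowest in that sample. Of the defining markers, Timd4 was at 91.4, 140, 67.6 and 78.8 CPM and Gata6 at 4.63, 5.34, 3.43 and 5.80 CPM. Timd4 was lower in both Dnmt1KO samples, with a log2 fold change of -0.66, or -0.56 without Dnmt1KO replicate 1, and Gata6 overlapped between genotypes. The macrophage markers Adgre1 and Csf1r were present in every sample, at 700 to 986 and 1011 to 1126 CPM. The 7 macrophage genes had a median log2 fold change of -0.025, with 2 higher and 1 lower by 0.2, against 21.8% and 19.7% of all genes. Without that sample both higher genes turned negative, and there were 1 higher and 2 lower, against 20.9% and 21.2%. Lyz2, which had the highest mean CPM of them and whose locus carries the Cre in Dnmt1KO mice, was at 29531, 28588, 11351 and 15745 CPM. It was lower in both Dnmt1KO samples, with a log2 fold change of -1.10, or -0.89 without Dnmt1KO replicate 1. Other cell types were also listed. Platelet genes summed to 97.0, 85.5, 163 and 100.04 CPM and mesothelial genes to 4.04, 5.10, 7.73 and 3.01 CPM, both highest in Dnmt1KO replicate 1. Their genes with the highest mean over samples were Pf4, at 94.6, 84.0, 160 and 98.3 CPM, and Krt19, at 1.56, 2.11, 3.48 and 1.40 CPM. Treml1, another platelet gene named here after its values were seen, was lowest in Dnmt1KO replicate 1, at 1.80, 0.757, 0.252 and 1.65 CPM. Dendritic cell genes, at 42.3, 40.8, 23.6 and 53.1 CPM, and eosinophil genes, at 14.1, 10.05, 7.67 and 11.1 CPM, had their lowest sum there. The defining eosinophil marker Siglecf was instead highest in that sample, at 4.19, 3.87, 5.60 and 3.14 CPM. T cell, NK cell and mast cell genes, at 26.6 to 37.4, 13.1 to 25.3 and 8.69 to 12.6 CPM, had neither their highest nor their lowest sum there. In bulk RNA, fewer cells of a type and less RNA per cell cannot be told apart.

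None of the 10 genes passed an adjusted p of 0.05 in edgeR, and 0% of the 12542 genes tested did. With all 4 samples, edgeR called 0 of the 10 and 0.279% of all genes tested at an unadjusted p under 0.05. At the adjusted threshold DESeq2 called 1 gene and limma-voom 0 among all genes. Of the 10 genes, 1 (Itgb7) was higher in Dnmt1KO by 0.2 or more on the log2 scale, against 21.8% of all genes tested, and 0 were at -0.2 or lower, against 19.7%. The genotypes did not overlap for 1 of the 10 (Itgb1, lower in Dnmt1KO), against 8.56% of all genes in that direction, and for 0 in the higher direction, against 8.14%. The median log2 fold change was -0.025 over the 10 genes and 0.00457 over all genes tested. Leaving out Dnmt1KO replicate 1 gave 1 gene higher by 0.2 (Itga4) and 3 lower (Itgb2, Itga5 and Itgb1), against 20.9% and 21.2% of all genes, and 5 of the 10 with no overlap, against 64.6% of all genes. Each count is too small to read against these shares.

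**Figure D1:**
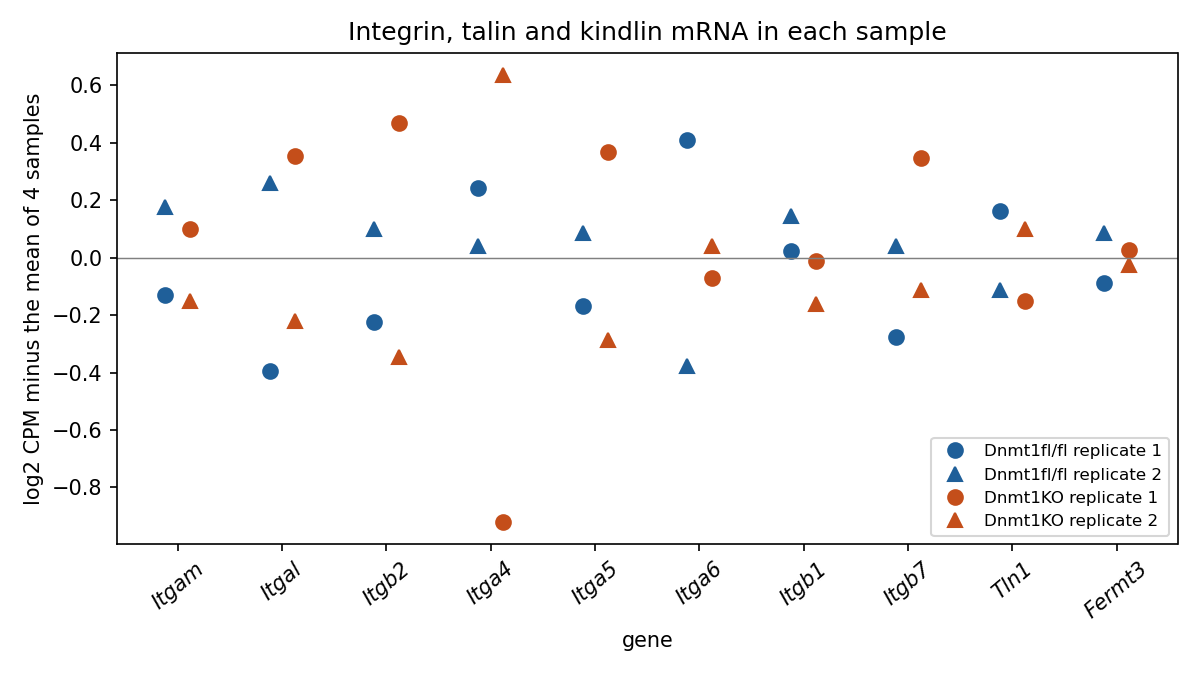
Log2 CPM of each gene in each sample, minus the mean of the 4 samples; circles are replicate 1 and triangles replicate 2, blue Dnmt1fl/fl and orange Dnmt1KO. Itga4 has the widest spread, with Dnmt1KO replicate 1 lowest (105 CPM) and Dnmt1KO replicate 2 highest (309 CPM).

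Itgb2, which encodes the beta2 chain shared by the leukocyte integrins, was at 1964, 2460, 3176 and 1807 CPM. Dnmt1KO replicate 1 was the highest and Dnmt1KO replicate 2 the lowest, so the genotypes overlapped. The log2 fold change was 0.17 (SE 0.36, 95% interval -0.71 to 1.06), with an adjusted edgeR p of 1.00, and it was -0.29 without Dnmt1KO replicate 1.

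Itgam, the alphaM chain of Mac-1, was at 1785, 2206, 2094 and 1758 CPM. The highest and the lowest value were 1 from each genotype. Its log2 fold change was -0.051 (SE 0.27), -0.18 without Dnmt1KO replicate 1 and 0.070 without Dnmt1KO replicate 2. Of its exon bases, 68.7% are shared with Gm49368, a protein-coding gene model on the same strand, so its count is uncertain. Itgal, the alphaL chain of LFA-1, was at 28.4, 44.6, 47.6 and 31.9 CPM. It was high in Dnmt1fl/fl replicate 2 and Dnmt1KO replicate 1 and low in the other 2 samples, and its log2 fold change was 0.12 (SE 0.32), or -0.20 without Dnmt1KO replicate 1.

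Itgb1, the beta chain with the most alpha partners, was at 980, 1067, 956 and 862 CPM. Both Dnmt1KO samples were below both Dnmt1fl/fl samples, by a margin that is small beside the distances within genotypes. The means were 1023 ± 61.0 (SD, n = 2) CPM in Dnmt1fl/fl and 909 ± 66.4 CPM in Dnmt1KO. The log2 fold change was -0.17 (SE 0.24, 95% interval -0.76 to 0.42), with an adjusted edgeR p of 1.00 and an unadjusted edgeR p of 0.499. It was -0.25 without Dnmt1KO replicate 1. With a correction for transcript length the genotypes overlapped.

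Itgb7, the beta chain of the gut-homing integrin that also holds alpha4, was at 356, 444, 548 and 399 CPM. Dnmt1KO replicate 1 was the highest and Dnmt1KO replicate 2 lay between the Dnmt1fl/fl samples. The log2 fold change was 0.24 (SE 0.27, 95% interval -0.44 to 0.92), and it was -0.00635 without Dnmt1KO replicate 1.

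Itga4, the alpha4 chain that binds VCAM-1 and fibronectin, was at 236, 205, 105 and 309 CPM. The Dnmt1KO samples were the lowest and the highest of the 4, with the Dnmt1fl/fl samples between them. The log2 fold change was -0.088 (SE 0.50), 0.49 without Dnmt1KO replicate 1 and -1.07 without Dnmt1KO replicate 2, where the adjusted edgeR p was 0.0200 and 1061 of all genes passed. In Dnmt1KO replicate 1 the fitted trend of log2 CPM with transcript length was -0.44 at the length of Itga4, whose longest transcript has 9767 bases. The part of length and of other cells in this value was not tested. Of the exon bases of Itga4, 8.04% overlap Cerkl on the opposite strand.

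Itga5, the fibronectin-binding alpha5 chain, was at 93.0, 111, 135 and 85.7 CPM. As for Itgb2, the Dnmt1KO samples were the highest and the lowest, and the log2 fold change was 0.11 (SE 0.29), or -0.25 without Dnmt1KO replicate 1. Itga6, the laminin-binding alpha6 chain, was at 209, 121, 150 and 162 CPM. Here the Dnmt1fl/fl samples were the highest and the lowest, and the log2 fold change was -0.082 (SE 0.31), or -0.029 without Dnmt1KO replicate 1.

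Tln1, which encodes talin-1, was at 1018, 842, 820 and 975 CPM. The genotypes overlapped, with a log2 fold change of -0.052 (SE 0.25), or 0.066 without Dnmt1KO replicate 1. Fermt3, which encodes the kindlin of blood cells, was at 288, 325, 312 and 301 CPM. It varied least of the 10 genes between its highest and lowest sample, by 1.13-fold, and its log2 fold change was 0.000565 (SE 0.22), or -0.028 without Dnmt1KO replicate 1.

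**Figure D2:**
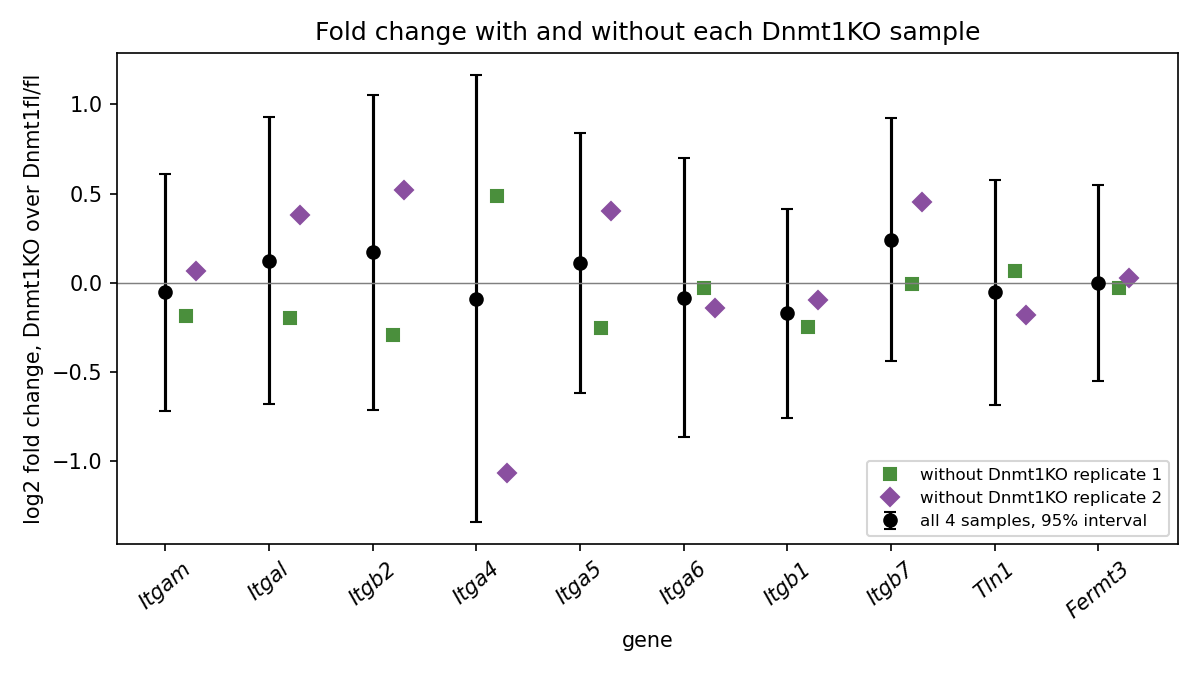
Log2 fold change of each gene, Dnmt1KO over Dnmt1fl/fl, with its 95% interval from edgeR over all 4 samples (black), without Dnmt1KO replicate 1 (green) and without Dnmt1KO replicate 2 (purple). All 10 intervals include 0, and Itga4 moves from 0.49 to -1.07 between the green and purple points.

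Itgb2, Itgal, Itga5 and Itgb7 shared a sample order, highest in Dnmt1KO replicate 1 and next in Dnmt1fl/fl replicate 2, as were the summed neutrophil genes. The same order held for 4 of the 10 genes and for 23.5% of all genes tested. The mirrored order, lowest in Dnmt1KO replicate 1 and next lowest in Dnmt1fl/fl replicate 2, held for Itga4 and Tln1 and for 23.2% of all genes tested. The part of neutrophil RNA in these levels was not tested. Among 3824 other genes with at least 50 CPM, those with the smallest mean absolute difference from Itgb2 in centred log2 CPM over the 4 samples were Vdac3 (0.0138), Capzb (0.0149) and Bax (0.0186). Those nearest to Itgb1 were Api5 (0.0202), Cd300ld (0.0210) and Cyfip1 (0.0212).

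Levels of different genes were compared per kilobase of the union of a gene's exons. Mean levels over the 4 samples were 771 CPM per kilobase for Itgb2, 390 for Itgam, 237 for Itgb1, 158 for Itgb7, 93.3 for Tln1 and 53.0 for Fermt3. Each of these genes was above the next in all 4 samples, with ranges that did not touch. The level of Itgam rests on its uncertain count. Itga5, Itga6 and Itga4 followed at 21.5, 17.8 and 15.3, and neighbours among these 3 kept their order in only 2 of 4 samples. Itgal was lowest at 5.80. With the longest transcript as length, Itga6 moved above Itga5, and with coding length Fermt3 moved above Tln1 and Itga4 above Itga6 and Itga5.

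The ratio of Itgb2 to its alpha chains was computed with Itgam, Itgal and Itgax (alphaX), since Itgad (alphaD) had 2 to 5 counts and did not pass the filter. It was 1.71, 1.75, 2.35 and 1.61 per length, highest in Dnmt1KO replicate 1. The uncertain count of Itgam enters this ratio and its ratio to Itgal below. The ratios were not corrected for the fitted trend with length. In Dnmt1KO replicate 1 that trend was -0.18 for Itgam and -0.024 for Itgb2, and its part in the ratio was not tested. The ratio of Itgb1 to Itgb7 was 1.87, 1.63, 1.18 and 1.47, lower in both Dnmt1KO samples, with a log2 difference of -0.41 and an exact two-sided permutation p of 0.333 (1.00 after Benjamini-Hochberg adjustment over 4 ratios). The log2 difference was -0.25 without Dnmt1KO replicate 1. With 2 samples in each group 0.333 is the smallest p that this test can give. The ratio of Itgam to Itgal was 82.3, 64.7, 57.5 and 71.9, and that of Itga4 to Itga6 was 0.729, 1.09, 0.454 and 1.23. Both overlapped between genotypes, with exact permutation p-values of 0.667 and 1.00.

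Of the 13 other integrin chains tested, 2 were higher and 5 lower in Dnmt1KO by 0.2 on the log2 scale, against 21.8% and 19.7% of all genes tested, with a median of -0.19 beside 0.00457 over all genes. Without Dnmt1KO replicate 1 there were 3 higher and 3 lower with a median of -0.0037, against 20.9% and 21.2% of all genes. Itgb5, with the highest mean CPM, was at 266, 219, 355 and 236 CPM, with a log2 fold change of 0.29, or -0.039 without that sample. Itgav, the alphaV chain, was at 101, 79.4, 74.8 and 63.6 CPM, and Itga9 at 18.3, 17.5, 10.7 and 12.8 CPM. Both were lower in both Dnmt1KO samples, with log2 fold changes of -0.38 (SE 0.24) and -0.61 (SE 0.25), or -0.50 and -0.48 without Dnmt1KO replicate 1.

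The 18 activators and inhibitors tested had a median log2 fold change of -0.068, with 1 at 0.2 or above and 2 at -0.2 or below, against the same 21.8% and 19.7% of all genes. There were 0 and 4 without Dnmt1KO replicate 1, against 20.9% and 21.2% of all genes, with a median of -0.054. Flna, a filamin that competes with talin for beta tails, had the highest mean CPM of the list, at 1795, 1455, 1309 and 1557 CPM. Apbb1ip, which encodes the talin recruiter RIAM, was at 162, 161, 190 and 168 CPM and was higher in both Dnmt1KO samples (log2 fold change 0.15, SE 0.22, or 0.053 without Dnmt1KO replicate 1).

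The 38 kinases and adaptors had a median of -0.026, with 5 higher and 4 lower by 0.2, against 21.8% and 19.7% of all genes. There were 4 higher and 11 lower without Dnmt1KO replicate 1, against 20.9% and 21.2% of all genes, with a median of -0.085. Syk, a kinase downstream of beta2 integrins, had the highest mean CPM, at 606, 560, 513 and 656 CPM, and overlapped between genotypes. Vcl, which encodes vinculin, was at 199, 131, 123 and 114 CPM, with a log2 fold change of -0.48 (SE 0.28), or -0.53 without Dnmt1KO replicate 1. The adaptor Nck2 (0.16, and 0.16 without that sample) and the exchange factor Vav3 (-0.14, and -0.16 without it) also did not overlap.

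Of the 20 ligands and counter-receptors tested, 9 were higher and 5 lower by 0.2, against 21.8% and 19.7% of all genes, with a median of 0.14. Without Dnmt1KO replicate 1, 8 of those 9 turned negative, and the list had 3 higher and 13 lower with a median of -0.58, against 20.9% and 21.2% of all genes. Fn1, fibronectin, had the highest mean over samples, at 6411, 5933, 6123 and 5917 CPM. In Dnmt1KO replicate 1 it was exceeded by Spp1, osteopontin, named here after its values were seen, at 2740, 3770, 10349 and 2127 CPM. Mfge8, a bridge between apoptotic cells and alphaV integrins, was at 131, 224, 421 and 290 CPM, with a log2 fold change of 1.00 (SE 0.36) and an adjusted edgeR p of 1.00, or 0.71 without Dnmt1KO replicate 1. Icam2, a counter-receptor of LFA-1, was at 41.4, 72.2, 28.4 and 40.5 CPM, and Thbs1, thrombospondin-1, at 678, 837, 620 and 355 CPM. Their log2 fold changes were -0.72 (SE 0.34) and -0.64 (SE 0.34), both lower in both Dnmt1KO samples, or -0.49 and -1.10 without Dnmt1KO replicate 1.

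The 14 tetraspanins and associated membrane proteins had a median of 0.16, with 6 higher and 1 lower by 0.2, against 21.8% and 19.7% of all genes. Without Dnmt1KO replicate 1, 5 of those 6 turned negative, and the list had 1 higher and 3 lower with a median of -0.10, against 20.9% and 21.2% of all genes. Cd53, with the highest mean CPM, was at 800, 949, 936 and 826 CPM. Tspan4 was at 59.0, 46.1, 75.5 and 65.5 CPM, higher in both Dnmt1KO samples, and Tspan32 at 22.0, 24.3, 16.5 and 21.7 CPM, lower in both. Their log2 fold changes went, without Dnmt1KO replicate 1, from 0.42 to 0.31 and from -0.28 to -0.098. With all samples, none of the genes in these 5 lists passed the adjusted threshold in edgeR. At an unadjusted edgeR p under 0.05 there was 1, Mfge8, against 0.279% of all genes tested.

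Because Dnmt1 acts on CG dinucleotides, the CG content of promoter windows is given as a description. RefSeq windows of 300 bases (GRCm38.p6) matched 7 of the 10 genes, and of all 32851 windows 94.6% hold at least 1 CG, with a median of 7. The motif CG reads the same on both strands. At least 10 CG were held by 4 of the 7 windows and by 43.5% of all windows. Itgb1 had 27, and Itgam 6. These 2 windows are shown with CG in capitals, at chr7:128062390-128062689 and chr8:128685404-128685703, both on the plus strand.
Itgam: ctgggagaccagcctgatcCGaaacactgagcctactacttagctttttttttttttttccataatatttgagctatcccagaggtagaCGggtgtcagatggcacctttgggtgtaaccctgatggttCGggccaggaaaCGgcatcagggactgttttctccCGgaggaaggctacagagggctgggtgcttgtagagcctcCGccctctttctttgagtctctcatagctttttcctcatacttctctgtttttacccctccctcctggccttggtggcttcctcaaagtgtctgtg
Itgb1: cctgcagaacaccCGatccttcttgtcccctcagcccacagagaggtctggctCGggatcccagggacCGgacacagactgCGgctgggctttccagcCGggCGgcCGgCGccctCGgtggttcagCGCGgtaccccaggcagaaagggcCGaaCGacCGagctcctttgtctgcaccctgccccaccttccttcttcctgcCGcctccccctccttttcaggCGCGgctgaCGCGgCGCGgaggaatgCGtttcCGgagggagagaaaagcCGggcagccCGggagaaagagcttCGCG
The other windows held 16 (Tln1), 13 (Itga5), 10 (Itga4), 5 (Itgb7) and 3 (Fermt3). Methylation was not measured in these samples.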

How the data were processed

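RNA was made into libraries from 4 samples and sequenced by the authors, who deposited a table of counts per gene. The submitters' processing notes name HISAT2 2.0.5, featureCounts 1.5.0-p3, DESeq2 1.20.0 and build mm10; the annotation and the strand setting are not given in the sources used here. The deposited estimated counts are not all whole (72.6% to 76.4% of values per sample are), and were rounded to whole numbers. A shorter deposited table repeats 2749 of the 13834 rows and was not used.

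Genes were tested with edgeR 4.0.16 (quasi-likelihood, filterByExpr, TMM, two-sided, Benjamini-Hochberg over all 12542 genes tested) in R 4.3.3; standard errors come from the F statistic. Alternatives used DESeq2 1.42.0 and limma 3.58.1. Ratios were tested by exact permutation in SciPy 1.17.1. Exon lengths and loci come from GENCODE M21. For the length offset, each library was fitted by loess (span 0.5) on the longest transcript of each gene. The fitted values were log2 CPM, with a prior count of 1, minus the gene's mean over the 4 samples. The edgeR, DESeq2 and limma-voom fits were tested on simulated counts, and the outcome is not given here.

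Named genes are all 10 members, Dnmt1, and the 3 genes nearest to Itgb2 and to Itgb1. Per pathway list the gene with the highest mean CPM is named, not scaled by length. Up to 3 more have the largest absolute log2 fold change among those whose genotypes do not overlap. Per marker list the gene with the highest mean CPM and the defining markers are named. Some defining markers are not reported here. Members and lists were chosen with earlier results of these data known.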

Additional observations from a re-analysis of the deposited data

How the results depend on the processing

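Of 110 comparisons of a gene's log2 fold change with an alternative that kept all 4 samples, 100 kept their sign, and none passed an adjusted p of 0.05. With the length offset the sign turned for Itgam (0.061), Itga6 (0.00716) and Tln1 (0.13), with the replicate block and the length offset for the same 3 genes (0.049, 0.054 and 0.12), and with an offset from the union of exons, added after seeing the data, likewise (0.022, 0.060 and 0.078). With at least 10 counts in every sample Fermt3 was -0.00335. The cause was not tested.

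Genes past the adjusted threshold numbered 0 in edgeR, 1 with DESeq2 and 0 with limma-voom. The count of the 10 genes at an absolute log2 fold change of 0.2 was 1 (41.5% of all genes tested). It was 2 with limma-voom (42.1%), 3 with the length offset (39.3%) and 2 with the offset from the union of exons (39.9%). At a limit of 0.5 it was 0, for which no share of all genes is given. The count with no overlap was 1 (16.7% of all genes tested), and 0 with any of the length offsets (18.4% to 18.6%). Replicate numbers pair nothing known: same-numbered samples deviated with a correlation of -0.35. With 2 samples per genotype, crossed samples must show the same correlation with the opposite sign, 0.35. The replicate block gave 0 genes past the adjusted threshold and 2 of the 10 genes at 0.2 (42.6% of all genes), and with the length offset 0 and 2 (39.6%), with 0 not overlapping. A crossed pairing was added after seeing the data and follows the positive correlation in these same samples. It gave 3 genes past the threshold, a count that this choice can raise, and 2 of the 10 at 0.2 (42.7%).

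Leaving out 1 sample, where the lone sample of a genotype is assumed to vary like the other, gave 0 to 1061 genes past the threshold, 0 to 1 of the 10 (Itga4, -1.07, adjusted edgeR p 0.0200 without Dnmt1KO replicate 2), 2 to 5 at 0.2, against 42.1% to 72.4% of all genes in those fits, and 4 to 7 not overlapping, against 40.1% to 82.8%. Log2 fold changes ranged from -0.20 to 0.12 (Itgam), -0.20 to 0.49 (Itgal), -0.29 to 0.52 (Itgb2), -1.07 to 0.49 (Itga4), -0.25 to 0.40 (Itga5), -0.42 to 0.37 (Itga6), -0.25 to -0.098 (Itgb1), -0.00635 to 0.45 (Itgb7), -0.18 to 0.093 (Tln1) and -0.082 to 0.094 (Fermt3). The log2 difference in ratio ranged from -0.10 to 0.44 for Itgb2 to its alpha chains, from -0.56 to -0.25 for Itgb1 to Itgb7, from -0.36 to -0.0075 for Itgam to Itgal and from -0.98 to 0.47 for Itga4 to Itga6. Without Dnmt1KO replicate 1, added after seeing the data, the genes of a list past 0.2 in either direction went from 3 to 5 (activators and inhibitors, where the 5 include Kank1, which passed the filter only in that fit), 9 to 15 (kinases and adaptors) and 7 to 4 (tetraspanins). Beyond counting error, the coefficient of variation between replicates of a genotype was 28.9%, as a single value common to all genes tested. All samples entered this value, also Dnmt1KO replicate 1. The 10 genes had 582 to 62902 counts. Tested genes of the integrin-related lists went down to 4 counts, and Ppbp of the platelet list had 3 in Dnmt1KO replicate 2. Counting error is not small at such counts.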
